A study of Homo sapiens with 6 samples.

Results

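Steroid enzymes that sit in the membrane of the endoplasmic reticulum were followed with redox and heme-binding proteins of the same compartment. Together they made 10 genes out of 34869 in the deposited table. The set was chosen by name and function, with earlier results of these data known. It held HSD3B2, HSD3B1, CYP21A2, CYP17A1, CYP19A1, POR, CYB5A, CYB5R3, PGRMC1 and H6PD, matched to the table by Ensembl identifier. RNA was sequenced from NCI-H295R cells, an established line from a human adrenocortical carcinoma, grown with serum and an insulin-transferrin-selenium supplement. All cells had received a lentivirus. In 3 libraries it carried a non-targeting control shRNA, a short hairpin RNA (the shCtrl group), and in the other 3 an shRNA against TPD52 (the shTPD52 group). The labels name 1 cell line and do not say whether replicates were grown apart. The p-values given here therefore reflect the spread among these libraries alone, which may be technical.

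Adrenal steroids are built from pregnenolone, which mitochondria make from cholesterol. In the endoplasmic reticulum, 3-beta-hydroxysteroid dehydrogenase (HSD3B2 in the adrenal, HSD3B1 in placenta and peripheral tissues) turns pregnenolone into progesterone, while the P450 enzyme CYP17A1 diverts the same substrate toward cortisol and adrenal androgens. CYP21A2, steroid 21-hydroxylase, acts downstream on the way to aldosterone and cortisol, and CYP19A1, aromatase, turns androgens into estrogens. These P450 enzymes take electrons from POR, the cytochrome P450 oxidoreductase, which runs on NADPH. The other members are CYB5A (cytochrome b5), its reductase CYB5R3, the heme-binding membrane protein PGRMC1, and H6PD, which makes NADPH inside the endoplasmic reticulum.

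Levels are given in FPKM, reads scaled to gene length and library size by the authors. Genes whose mean over the 6 libraries reached 1 FPKM were tested with limma, a linear model with moderated variances, on log2(FPKM + 0.5), which understates the change of low genes. A log2 difference is the shTPD52 mean minus the shCtrl mean on that scale, and coordinates are those of GENCODE release 29. A gene was called when the two-sided p, adjusted by Benjamini-Hochberg over all 12782 genes tested, was under 0.05. The depth worked back from the FPKM was between 29544392 and 38396925 reads per library. TPD52, the targeted gene, stood at 1.42, 1.18 and 1.29 FPKM in shCtrl and at 0.630, 0.635 and 0.655 FPKM in shTPD52 replicates 1, 2 and 3. It fell by 0.65 on the log2 scale (SE 0.14, adjusted p by limma = 0.0218 when added to the genes tested), so every library carried the label its TPD52 level would give. That call held in 9 of 17 alternative settings of the analysis, and in 1 of 6 with a library removed (adjusted p by limma from 0.00435 to 0.0996). On the first principal component, which held 61.0% of the variance, shTPD52 replicate 2 lay at 40.7% of the way from the shCtrl mean to the mean of shTPD52 replicates 1 and 3. Reads of mitochondrially encoded genes made up 17.9% ± 0.527 of the shCtrl libraries and 22.1% ± 2.37 of the shTPD52 libraries (SD, n = 3 each). The cells carried their adrenocortical label: 8 of 9 cortex markers had a mean of at least 1 FPKM, STAR and NR5A1 among them. Markers of adrenal medulla, placenta, fibroblasts, endothelium and blood summed to at most 1.28 FPKM per list in any library, and among gonadal markers only AMH exceeded 1 FPKM. The summed cortex markers ran from 457 to 483 FPKM in shCtrl and from 515 to 542 FPKM in shTPD52. In bulk RNA, fewer cells of a type and less RNA per cell cannot be told apart.

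HSD3B2, CYP19A1 and CYP21A2 rose with the TPD52 hairpin, to 3.67, 2.92 and 1.28 times the control mean in FPKM. No member fell by the test: CYP17A1 and H6PD stood at 0.779 and 0.724 times their control level and missed the threshold narrowly. The shared electron donor POR, cytochrome b5 (CYB5A), its reductase (CYB5R3) and PGRMC1 had mean levels between 0.948 and 1.03 times control. The groups did not overlap for 5 of the 9 tested members, as for 42% of all genes. By the test, 3 of the 9 were higher, where 5.63% of all genes tested were. The members were chosen with earlier results of these data known, so this share is not a test of the set. None was lower by limma, where 12.7% of all genes were, while 2 members were lower at an unadjusted p under 0.05 and 2 by limma-voom on recovered reads. HSD3B1 was under the filter. The 3 risers lay wholly above their controls, as 13.8% of all genes did, and CYP17A1 and H6PD lay wholly below, as 28.3% of all genes did. The median log2 difference of the 9 tested members was -0.012, beside -0.11 for all genes tested. Median-ratio scaling moved the median of all genes to 0.00 and the split of calls from 720 higher and 1621 lower to 1083 and 1038. With 1 library left out, calls over all genes ran from 48 to 1616 higher and from 39 to 4209 lower, so these shares move with the libraries used. HSD3B2 and CYP19A1 were called in all 17 alternative settings and CYP21A2 in 10 of them.

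**Figure D1:**
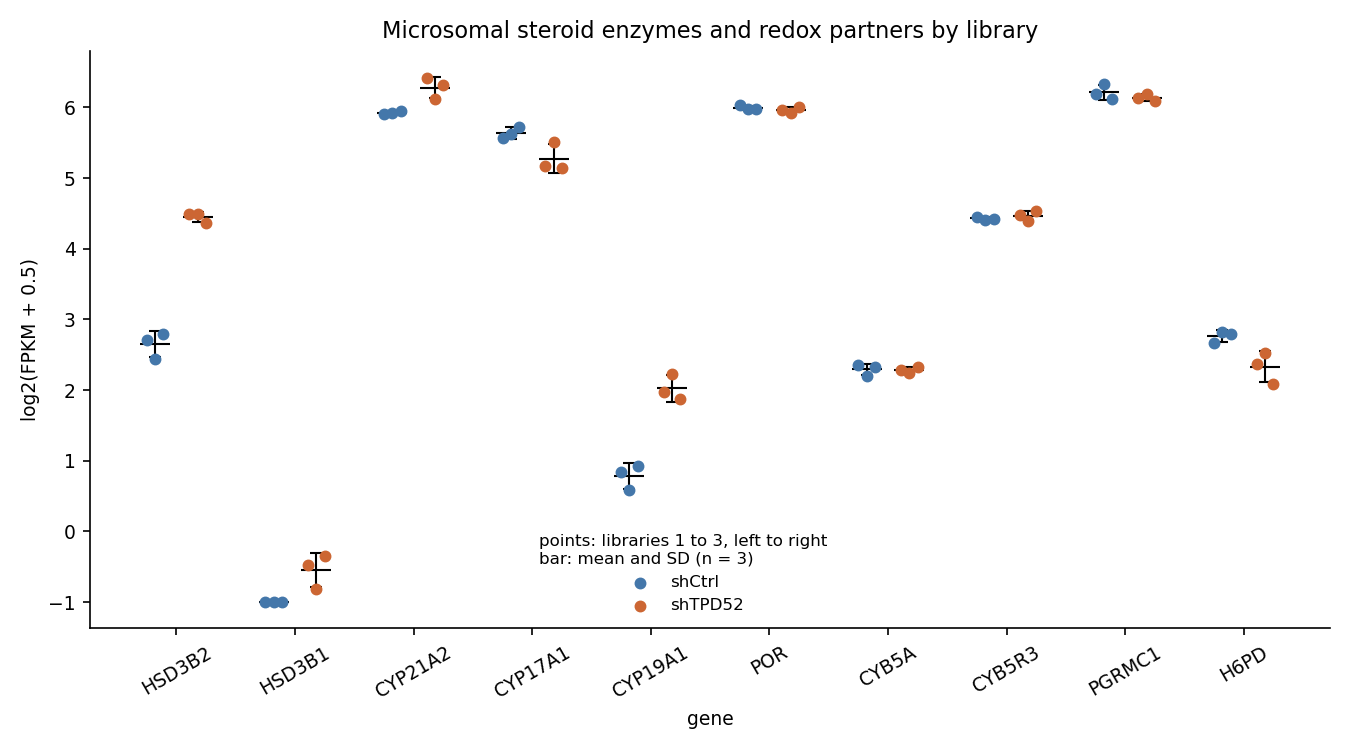
Level of each member in each library, as log2(FPKM + 0.5) on the vertical axis, for shCtrl (blue) and shTPD52 (orange), with libraries 1 to 3 from left to right and bars for the mean and SD (n = 3). HSD3B2, CYP19A1 and CYP21A2 lie apart above their controls, CYP17A1 and H6PD below theirs, and the points of POR, CYB5A, CYB5R3 and PGRMC1 overlap between groups.

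HSD3B2 (ENSG00000203859, GRCh38 chromosome 1, 119414931 to 119423035, plus strand) was at 6.05, 4.94 and 6.42 FPKM in the control libraries 1, 2 and 3. The knockdown libraries 1, 2 and 3 held 21.9, 21.9 and 20.1 FPKM. The lowest knockdown library thus lay more than 3 times above the highest control, and the 3 knockdown libraries lay close together. The log2 difference was 1.80 (SE 0.11, 95% interval 1.55 to 2.05, adjusted p by limma = 0.00138). The call held in all 17 alternatives, among them the 6 with a library removed, with log2 differences from 1.70 to 1.91. The values rest on 353 to 553 reads in each control library and 1514 to 1867 in each knockdown library, counted at the GENCODE release 29 exon length. Its level reached 106% of the way from the control mean to the mean of the other 2 knockdown libraries in shTPD52 replicate 2, the library that lay nearest to the controls on the first principal component.

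HSD3B1 (ENSG00000203857, GRCh38 chromosome 1, 119507198 to 119515054, plus strand) lies downstream of HSD3B2 on the same chromosome, with the pseudogene HSD3BP2 between them, and encodes the placental and peripheral form of the enzyme. It had 0 reads in each of the 3 shCtrl libraries and 16, 6 and 27 reads in shTPD52 replicates 1, 2 and 3, or 0.222, 0.0673 and 0.288 FPKM. Each knockdown library held some reads and no control library did. Against a floor of 3 reads over the control group, the observed knockdown level was 15.9-fold higher. That figure allows for no counting error in the knockdown reads. It also takes each read as a separate count, although both mates of a pair may have been counted. Added to the genes tested, HSD3B1 had a log2 difference of 0.46 (95% interval -0.065 to 0.98, adjusted p by limma = 0.173) and was not called. By limma-voom on the recovered reads it was called (adjusted p = 0.0102), the only alternative of 17 in which it was. Even in shTPD52 it made up only 0.307% to 1.43% of the HSD3B2 level. The pseudogene HSD3BP2 also had more reads, 3 to 6 in each control library and 14 to 36 in each knockdown library (under the filter, not tested).

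Both enzymes come from a gene duplication. Over 1116 aligned coding bases (GENCODE release 29 transcripts) HSD3B2 and HSD3B1 were 93.6% identical, with 71 differences. The longest identical run was 74 bases, 4.87% of the 50-base stretches of HSD3B2 occurred in HSD3B1, and 0% of its 100-base stretches did. Reads that fall in the alike stretches could be assigned to either gene, and how the authors treated such reads is not given in the sources used here.

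Among the P450 enzymes of the set, CYP19A1 had the largest rise. Aromatase RNA (ENSG00000137869, GRCh38 chromosome 15, 51208057 to 51338610, minus strand) was at 1.29, 0.997 and 1.40 FPKM in the control libraries 1, 2 and 3. The knockdown libraries 1, 2 and 3 held 3.42, 4.20 and 3.16 FPKM. All knockdown libraries were above all controls, and replicate 2 was the highest of them. The log2 difference was 1.24 (SE 0.15, 95% interval 0.90 to 1.58, adjusted p by limma = 0.00606), from 257 to 435 reads in each control library and 853 to 1293 in each knockdown library. The call held in all 17 alternatives, with log2 differences from 1.04 to 1.54. Even after the rise aromatase stood at 4.64% of the CYP21A2 level in FPKM, with exon lengths of 8437 bases for CYP19A1 and 2909 for CYP21A2.

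CYP21A2 (ENSG00000231852, GRCh38 chromosome 6, 32038265 to 32041670, plus strand) was at 59.5, 59.9 and 61.4 FPKM in the control libraries 1, 2 and 3. The knockdown libraries 1, 2 and 3 held 84.5, 68.7 and 79.0 FPKM, with replicate 2 nearest to the tight cluster of controls. Its rise was 0.35 on the log2 scale (SE 0.090, 95% interval 0.15 to 0.56, adjusted p by limma = 0.0353). That call held in 10 of 17 alternatives. It ended without a filter (adjusted p by limma = 0.0999), without the variance trend (0.0569), and on leaving out each library in turn except shTPD52 replicate 2 (0.0841 to 0.123). CYP21A2 has a pseudogene, CYP21A1P, that was 98.9% identical over 1477 aligned bases, with an identical run of 403 bases. Of the 100-base stretches of the CYP21A2 coding sequence, 33% occurred in the pseudogene transcript, so reads could be assigned to either. The pseudogene had 0.445 ± 0.0591 FPKM in controls and 0.656 ± 0.323 in the knockdown (SD, n = 3 each), far under CYP21A2. Of the exon bases of CYP21A2, 10.2% overlap exons of TNXB on the opposite strand, a gene at 0.337 ± 0.0638 FPKM in controls and 0.506 ± 0.141 in the knockdown (n = 3 each, not tested).

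CYP17A1 (ENSG00000148795, GRCh38 chromosome 10, 102830531 to 102837533, minus strand), the 17-alpha-hydroxylase and 17,20-lyase, was at 46.8, 48.8 and 52.5 FPKM in the control libraries 1, 2 and 3. The knockdown libraries 1, 2 and 3 held 35.7, 44.9 and 34.7 FPKM. The groups did not overlap, and replicate 2 again lay nearest to the controls. The log2 difference was -0.36 (SE 0.11, 95% interval -0.62 to -0.11) and did not pass (adjusted p by limma = 0.0565). It passed in 4 of 17 alternatives, among them without shTPD52 replicate 2 (log2 difference -0.48, adjusted p by limma = 0.00278). Of its annotated exon bases, 41.1% overlap exons of WBP1L on the opposite strand, and the strand setting of the counting is not given in the sources used here. WBP1L itself went from 14.9 ± 0.404 to 11.1 ± 0.538 FPKM (SD, n = 3 each) and was called lower (log2 difference -0.41, adjusted p by limma = 0.0180), a call that ended after the correction for length and GC (-0.15, adjusted p by limma = 0.111) and without any 1 shCtrl library or shTPD52 replicate 1. Its part in the CYP17A1 value was not tested.

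The position of shTPD52 replicate 2 differed among members. Set on a scale from the control mean to the mean of the other 2 knockdown libraries, it stood at 31.2% for CYP17A1, 39.5% for CYP21A2, 26.4% for HSD3B1 and 50.1% for H6PD. For HSD3B2 it stood at 106% and for CYP19A1 at 144%. The mitochondrial share of its reads stood at 31.1% on the same scale. What sets this library apart was not tested.

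The electron carriers showed small differences in both directions. POR (ENSG00000127948, GRCh38 chromosome 7, 75899200 to 75986855, plus strand) stood at 64.8, 62.4 and 62.5 FPKM in the control libraries 1, 2 and 3, against 62.1, 59.9 and 63.6 FPKM in knockdown libraries 1, 2 and 3. The groups overlapped. Its log2 difference was -0.031, with a 95% interval from -0.19 to 0.13 (adjusted p by limma = 0.761). The sign turned with median-ratio scaling (0.091), with scaling to non-mitochondrial reads (0.045) and after the correction for length and GC (0.22, adjusted p by limma = 0.0524). CYB5A (ENSG00000166347, GRCh38 chromosome 18, 74250847 to 74292016, minus strand), which aids the lyase step of CYP17A1, ranged from 4.11 to 4.60 FPKM in shCtrl and from 4.23 to 4.53 FPKM in shTPD52. Its knockdown libraries lay inside the range of the controls. Its log2 difference was -0.012 (95% interval -0.23 to 0.20, adjusted p by limma = 0.939), and its sign turned in 7 of 17 alternatives.

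CYB5R3 (ENSG00000100243, GRCh38 chromosome 22, 42617840 to 42649568, minus strand), the NADH-dependent reductase of cytochrome b5, ranged from 20.8 to 21.3 FPKM in shCtrl. In shTPD52 it ranged from 20.6 to 22.7 FPKM, a spread that enclosed the controls. Its log2 difference was 0.041 (95% interval -0.13 to 0.21, adjusted p by limma = 0.709), and it passed only after the correction for length and GC (0.28, adjusted p by limma = 0.0351). PGRMC1 (ENSG00000101856, GRCh38 chromosome X, 119236245 to 119244466, plus strand), a heme-binding partner of P450 enzymes, ranged from 68.9 to 79.9 FPKM in shCtrl and from 67.4 to 72.7 FPKM in shTPD52. The groups overlapped, and the highest value was that of shCtrl replicate 2. Its log2 difference was -0.074 (95% interval -0.26 to 0.11, adjusted p by limma = 0.524), with the sign turned by median-ratio scaling (0.048) and by rescaling to non-mitochondrial reads (0.0020). Missing the threshold does not show that these 4 genes stayed at the same level. Their 95% intervals reach as far as -0.26 and 0.21.

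H6PD (ENSG00000049239, GRCh38 chromosome 1, 9234775 to 9271337, plus strand) encodes hexose-6-phosphate dehydrogenase, which makes NADPH in the lumen of the endoplasmic reticulum. It stood at 5.84, 6.58 and 6.46 FPKM in the control libraries 1, 2 and 3, against 4.67, 5.25 and 3.76 FPKM in knockdown libraries 1, 2 and 3. Every knockdown library was below every control. The log2 difference was -0.43 (SE 0.13, 95% interval -0.73 to -0.14) and did not pass (adjusted p by limma = 0.0506). It passed in 5 of 17 alternatives, among them without shTPD52 replicate 2 (-0.53, adjusted p by limma = 0.00824). With the dependence of each library on gene length and GC content removed, it was -0.11 (adjusted p by limma = 0.352). H6PD has the longest exon sequence of the set, 9321 bases. CYB5A, with 9313 bases, had a log2 difference of -0.012, and the part of length in the H6PD value was not tested.

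**Figure D2:**
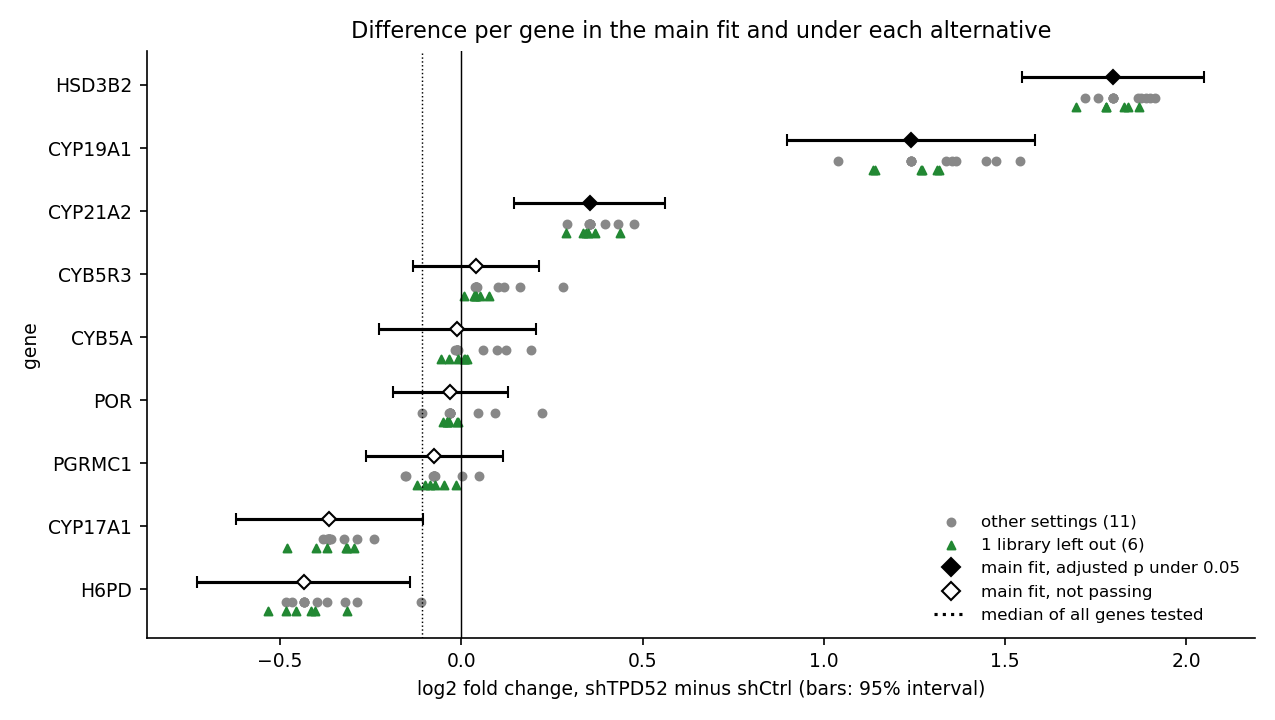
Log2 fold change (shTPD52 minus shCtrl, horizontal axis) of the 9 tested members in the main fit with its 95% interval (diamonds, filled where adjusted p is under 0.05), in 11 other settings (grey) and with 1 library left out (green, 6 each). HSD3B2 and CYP19A1 stay above 1 throughout, while the H6PD point nearest to 0 is the correction for length and GC at -0.11.

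**Figure D3:**
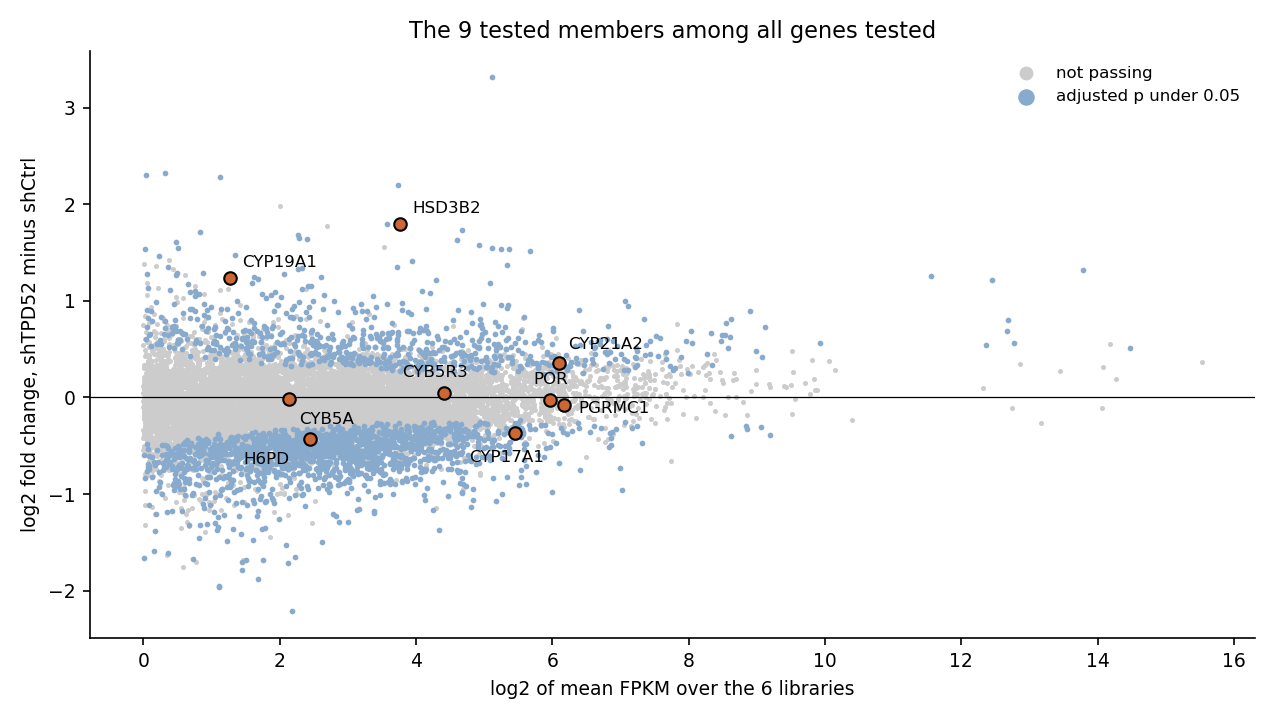
Log2 fold change (vertical axis) against log2 of mean FPKM (horizontal axis) for the 12782 genes tested, called genes in blue and members in orange. HSD3B2 at 1.80 lies near the upper edge of the cloud, and POR, CYB5A, CYB5R3 and PGRMC1 lie within it close to 0.

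Per unit of length, the most abundant members in shCtrl were PGRMC1 (73.8 ± 5.62 FPKM, SD, n = 3), POR (63.2 ± 1.37), CYP21A2 (60.2 ± 1.03) and CYP17A1 (49.3 ± 2.89). CYB5R3 followed at 21.0 ± 0.256 FPKM, then H6PD at 6.29 ± 0.395 and HSD3B2 at 5.80 ± 0.769, whose libraries overlapped. CYB5A stood at 4.41 ± 0.266, CYP19A1 at 1.23 ± 0.209 FPKM and HSD3B1 at 0. In shTPD52, CYP21A2 at 77.4 ± 8.01 FPKM came first, overlapping PGRMC1 at 70.0 ± 2.64. HSD3B2 moved up to 21.3 ± 1.05 FPKM, overlapping CYB5R3 at 21.7 ± 1.07, and CYB5A at 4.37 ± 0.148 overlapped H6PD at 4.56 ± 0.751. HSD3B2 was above 52.6% of all genes tested in shCtrl and above 85.8% in shTPD52. CYP19A1 was above 5.45% and 40.9%. These orders depend on the exon lengths used, which take in every annotated exon of a gene. At 9313 exon bases, CYB5A had 1170 to 1557 reads in each control library. HSD3B2, at 2336 bases, had 353 to 553.

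HSD3B2 and CYP17A1 act on the same substrate, so their levels were also set in a ratio within each library. The size of such a ratio depends on the exon lengths used. HSD3B2 stood at 0.129, 0.101 and 0.122 times CYP17A1 in shCtrl replicates 1, 2 and 3 and at 0.615, 0.488 and 0.579 times in shTPD52 replicates 1, 2 and 3. The ratio was 4.77-fold higher with the knockdown, and no libraries overlapped (exact permutation test, two-sided, p = 0.1, the smallest that 3 against 3 libraries allow). The values of both genes were known when this ratio was chosen, and CYP17A1 alone did not pass the test. POR per summed CYP17A1, CYP21A2 and CYP19A1 was 0.571 ± 0.0304 in shCtrl and 0.518 ± 0.0227 in shTPD52 (n = 3 each; exact permutation p = 0.2), with overlapping libraries. CYB5A per CYP17A1 was 0.0897 ± 0.00762 and 0.116 ± 0.0189 (n = 3 each; exact permutation p = 0.2), and shTPD52 replicate 2 at 0.0942 fell among the controls. Adjusted over the 3 ratios by Benjamini-Hochberg, each p was 0.2.

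**Figure D4:**
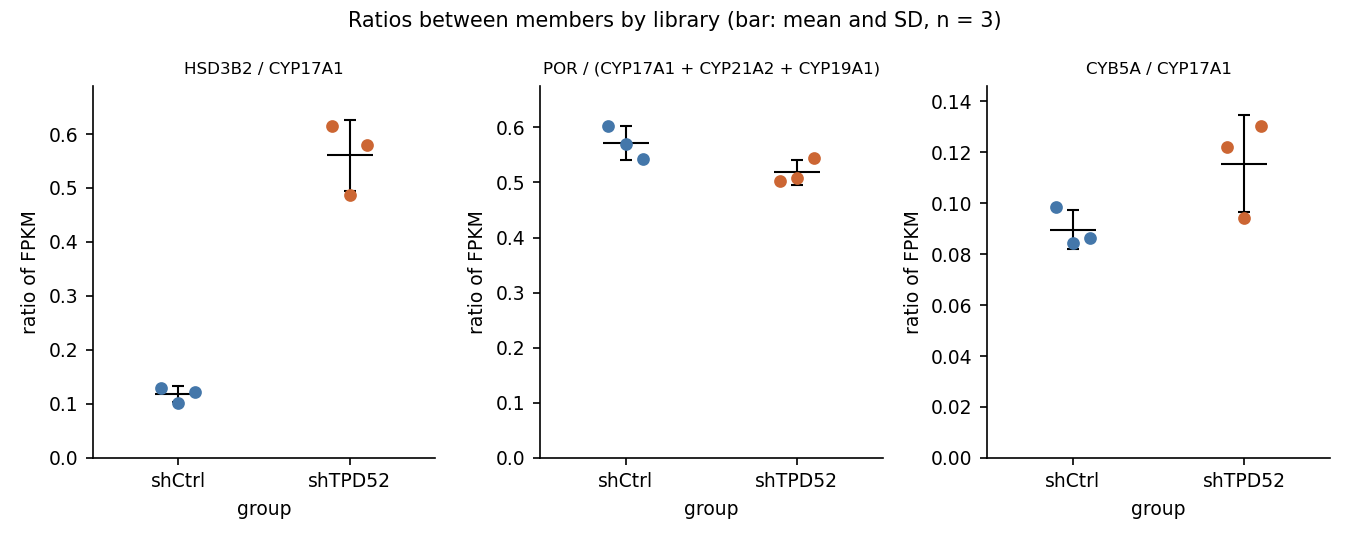
Ratio of FPKM in each library (vertical axis, from 0) for HSD3B2 to CYP17A1, POR to the 3 P450 enzymes summed, and CYB5A to CYP17A1, with mean and SD (n = 3). The first ratio separates the groups, at 0.101 to 0.129 against 0.488 to 0.615, and the other 2 overlap.

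The promoters of the members were read for the motifs of factors that work in steroidogenic cells. NR5A1 (SF-1) binds the core AAGGTCA, here the 7-letter motif. The NR4A receptors bind the 8-letter motif AAAGGTCA, which contains it. A loose form, AAGGTNA with N for any base, was searched as well and takes in both. The core of cAMP response elements is TGACG. Both strands of the 250 bases before each RefSeq start (GRCh38.p14) were searched. Of the 10 members, 9 had promoter windows, 18 in all, 7 of them for CYP19A1. POR had none and was not searched. The shares of all 35116 promoter windows that hold these letters were 3.44% for the 7-letter motif, 1.05% for the 8-letter motif, 10.1% for the loose form and 21.2% for the cAMP core. The 7-letter motif occurred before HSD3B1, CYP21A2, CYP19A1 (in 1 of its 7 windows) and H6PD, and all but CYP19A1 held the 8-letter motif. CYP17A1 held the loose form without the 7-letter motif, and H6PD held a second match to the loose form. The cAMP core occurred before HSD3B2, CYP21A2, CYP19A1, CYB5R3 and H6PD. Members are listed by gene, some with several windows, so their number cannot be set directly beside the shares of windows. H6PD and CYP21A2 each held all of the searched motifs, and a link between letters and change was not tested. The H6PD window (9239597 to 9239846) lies inside the GENCODE gene, which starts at 9234775, and overlaps its exons. Several other windows also overlap GENCODE exons of their own gene. A match of letters is a description and not a measured site. The 30-base stretches around these matches are shown, with the loose form, or its reverse complement, in capitals.
HSD3B1 (chr1:119507068-119507097, plus strand): agatgtaacccaAAGGTCActatttttctg
CYP21A2 (chr6:32038168-32038197, plus strand): ggatgcaggaaaAAGGTCAgggttgcattt
CYP19A1 (chr15:51243143-51243172, minus strand): tgagactctaccAAGGTCAgaaatgctgca
CYP17A1 (chr10:102837450-102837479, minus strand): taacacaaagtcAAGGTGAagatcagggta
H6PD, first match (chr1:9239706-9239735, plus strand): cctggcgcacagAAGGTAAcgtcaaaagct
H6PD, second match (chr1:9239753-9239782, plus strand): agcagcagacatTGACCTTtacctcccgct

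HSD3B2, the tested member with the largest rise, held none of the other 3 motifs in the 250 bases searched and held TGACG once, 177 to 173 bases before the start. The whole window (chr1:119414681-119414930, plus strand) is shown because the rise of this gene is the largest among the tested members, with TGACG in capitals.
HSD3B2 upstream: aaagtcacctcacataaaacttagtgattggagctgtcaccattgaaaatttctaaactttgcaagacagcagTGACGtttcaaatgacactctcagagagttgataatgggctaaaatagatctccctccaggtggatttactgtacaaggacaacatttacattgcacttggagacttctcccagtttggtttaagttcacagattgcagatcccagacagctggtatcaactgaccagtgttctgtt

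The last 39 of those bases recur before HSD3B1, but 250 to 212 bases upstream of its RefSeq start. They differ at 2 positions (capitals), so the windows of the 2 genes cover different parts of the duplicated promoter. The AAAGGTCA of HSD3B1, 124 to 117 bases before its first RefSeq start, comes after this shared stretch. A matching place in HSD3B2 would lie past its start and was not searched.
HSD3B2 (chr1:119414892-119414930): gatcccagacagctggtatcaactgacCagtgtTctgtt
HSD3B1 (chr1:119506953-119506991): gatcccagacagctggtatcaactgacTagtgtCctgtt

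Around these enzymes, 91 further genes of steroid metabolism in 7 lists were examined, of which 64 were tested. In all 4 rose, 7 fell and 53 did not pass, shares close to the 5.63% higher and 12.7% lower among all genes tested. These pooled shares cannot tell where any single list stands, and each list held only 5 to 14 tested genes. Among the mitochondrial steps, 2 of 5 tested genes rose and none fell by limma (0 at an unadjusted p under 0.05 and 0 by limma-voom), and the list's median log2 difference was 0.35 beside -0.11 for all genes. Aldosterone synthase, CYP11B2, had a log2 difference of 1.24 (adjusted p by limma = 0.0115), and FDX1, the ferredoxin that feeds mitochondrial P450 enzymes, of 0.41 (adjusted p by limma = 0.0202). FDX1 went from 24.0 ± 1.03 to 32.1 ± 2.41 FPKM (SD, n = 3 each). FDXR, the NADPH-dependent reductase that hands electrons to FDX1, did not pass (log2 difference 0.087, adjusted p by limma = 0.579), nor did POR. FDX1 was no longer called when the filter, any shCtrl library or shTPD52 replicate 1 was left out (adjusted p by limma up to 0.104), and CYP11B2 without shCtrl replicate 1 or 3 (up to 0.0667).

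Of the other steroid dehydrogenases and reductases, 14 were tested: 1 was called higher, 1 lower and 12 did not pass, with a median of 0.057. HSD17B10, a mitochondrial dehydrogenase, went from 11.5 ± 0.790 to 27.7 ± 4.33 FPKM (SD, n = 3 each). Its log2 difference was 1.22 (adjusted p by limma = 0.00436) and was called in all 17 alternatives. HSD17B14 fell by 0.35 (adjusted p by limma = 0.0294), a call that held in 10 of 17 alternatives. It ended with median-ratio or non-mitochondrial scaling, with no filter, and when any shCtrl library or shTPD52 replicate 1 was left out (adjusted p by limma up to 0.174). Of 6 tested sulfation genes, 1 rose and 1 fell (5.63% and 12.7% of all genes), with a median of -0.24. SULT2A1, which sulfates DHEA, rose from 20.2 ± 0.651 to 28.0 ± 2.12 FPKM (SD, n = 3 each; log2 difference 0.46, adjusted p by limma = 0.0162). PAPSS1, which makes the sulfate donor PAPS, fell from 19.8 ± 0.742 to 14.3 ± 2.55 FPKM (log2 difference -0.47, adjusted p by limma = 0.0383). Both lost their calls without any 1 shCtrl library and without shTPD52 replicate 1, and PAPSS1 also without shTPD52 replicate 3, the filter or the variance trend (adjusted p by limma up to 0.0837 and 0.130).

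Of the other enzymes that draw on POR, 18 were listed and none of those tested passed. The 8 under the filter were not tested, so nothing is said of them. Of 10 tested, such as squalene epoxidase and the heme oxygenases, none rose or fell by limma (1 lower at an unadjusted p under 0.05, 0 by limma-voom), with a median of 0.031. Of 8 tested relatives of the redox partners, none rose (1 at an unadjusted p under 0.05, 0 by limma-voom) and 2 fell (12.7% of all genes), with a median of -0.072. NDOR1, a diflavin reductase related to POR, fell from 16.0 ± 1.24 to 9.39 ± 1.41 FPKM (SD, n = 3 each; log2 difference -0.74, adjusted p by limma = 0.0130). TXNRD1, cytosolic thioredoxin reductase, fell from 58.9 ± 4.54 to 34.0 ± 11.2 FPKM (log2 difference -0.83, adjusted p by limma = 0.0304). With no filter both lost their calls. So did NDOR1 without shCtrl replicate 2 or 3 or shTPD52 replicate 1, and TXNRD1 on leaving out each library in turn except shTPD52 replicate 2 (adjusted p by limma up to 0.0749 and 0.115).

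Of 12 tested genes of NADPH supply, none rose (0 at an unadjusted p under 0.05, 0 by limma-voom) and 1 fell, with a median of 0.00. That gene was SLC37A4, the carrier that brings glucose-6-phosphate, the substrate of H6PD, into the endoplasmic reticulum. It stood at 5.77, 5.97 and 5.94 FPKM in the control libraries 1, 2 and 3, against 4.38, 4.22 and 4.33 FPKM in knockdown libraries 1, 2 and 3. Its groups lay well apart with little spread, and the log2 difference was -0.41 (adjusted p by limma = 0.0209). As with H6PD, the correction for length and GC brought it nearer to 0 (-0.18, adjusted p by limma = 0.104), and the call also ended with median-ratio scaling, with quantile normalization, without any 1 shCtrl library and without shTPD52 replicate 1. Of 9 tested genes of heme synthesis, none rose (1 at an unadjusted p under 0.05, 0 by limma-voom) and 2 fell (12.7% of all genes), with a median of -0.075. ALAS1, the rate-limiting enzyme, fell from 77.8 ± 1.63 to 62.6 ± 3.85 FPKM (SD, n = 3 each; log2 difference -0.31, adjusted p by limma = 0.0302), and ALAD fell by 0.27 (adjusted p by limma = 0.0416). The ALAS1 call held in 8 of 17 alternatives and the ALAD call in 6 of 17. Both ended with median-ratio scaling, on rescaling to non-mitochondrial reads, with no filter, with no variance trend and on leaving out each library in turn except shTPD52 replicate 2 (adjusted p by limma up to 0.132 and 0.199), and ALAD also with the replicate block and after the correction for length and GC (-0.12).

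**Figure D5:**
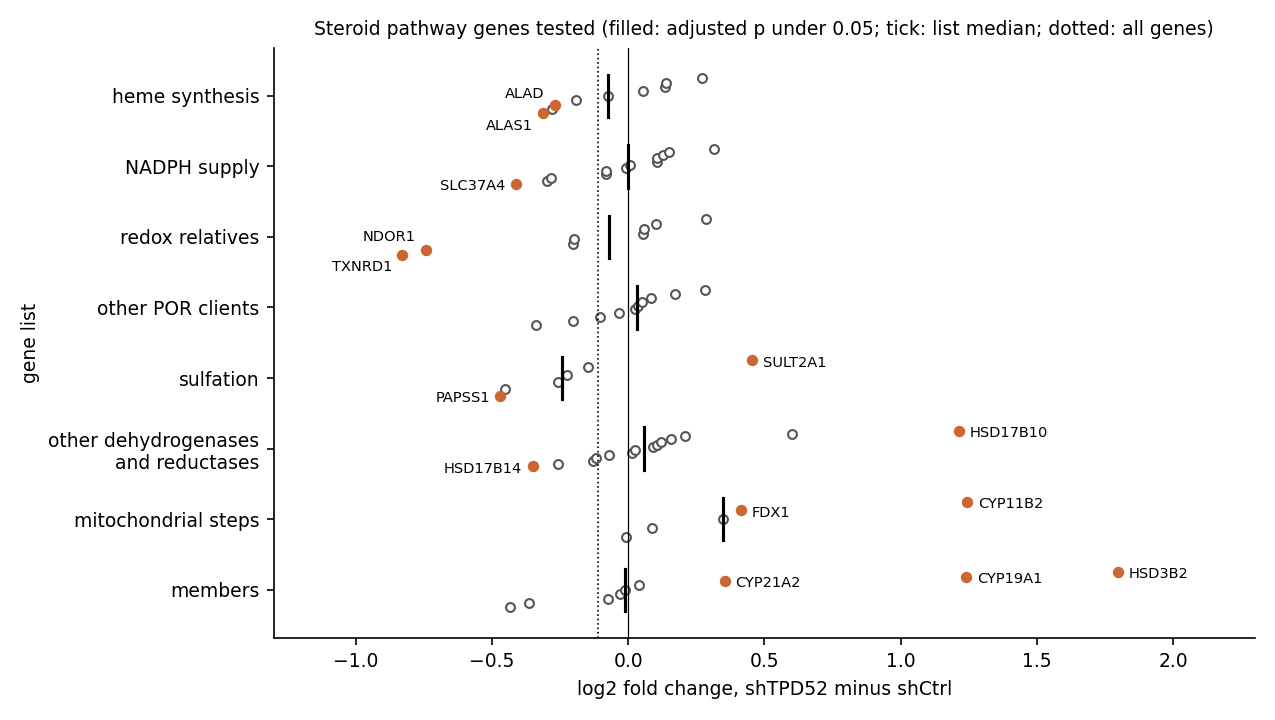
Log2 fold change (horizontal axis) of each tested gene in the member set and 7 lists of steroid metabolism (vertical axis); filled points passed, ticks mark list medians and the dotted line the median of all genes at -0.11. Called genes on the right are 3 members, CYP11B2, FDX1, HSD17B10 and SULT2A1, and those on the left include TXNRD1, NDOR1 and SLC37A4.

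Genes whose pattern over the 6 libraries lay close to that of HSD3B2 were sought among 6454 tested genes averaging 5 FPKM or more. Closeness was the root mean square difference of centred log2(FPKM + 0.5) values. Genes without a symbol or with only a clone or locus identifier were left out of the ranking. The closest of the rest were FAM166B (0.15), CST1 (0.23), SPRR1B (0.23), SPRR1A (0.25) and FATE1 (0.27). FAM166B went from 15.0 ± 1.63 to 45.5 ± 3.69 FPKM (SD, n = 3 each), and FATE1 from 4.44 ± 0.333 to 22.2 ± 2.85 FPKM. With 6 libraries in 2 groups, this likeness mostly restates the difference between groups. CYP19A1 was not among the genes compared because its mean lay under 5 FPKM.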

How the data were processed

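Per the labels' protocols, total RNA of 6 NCI-H295R libraries was sequenced paired-end. HISAT2 2.2.1, featureCounts 2.0.3 and GRCh38 appear in the submitters' processing notes, with no roles. The sources used here do not give the annotation, filters or strand setting. The deposited table holds FPKM computed by the authors, 1 column per library. Members and lists were chosen with earlier results of these data known.

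Reads were worked back from FPKM with GENCODE release 29 exon lengths. Of values under 100 reads, 69.4% to 71.3% came out whole within 0.02 reads. Odd numbers made up 26.0% to 29.4% of counts from 1 to 20, as when each mate of a pair is counted, so reads may stand for fewer fragments. A floor of 3 reads is 0.0391 to 0.0508 FPKM for a gene of 2 kb. Symbols matched 99.8% of identifiers.

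Tests used limma 3.58.1 in R 4.3.3 with an intensity trend, unscaled FPKM and a pseudocount of 0.5. Members under the filter were each added to the fit. The scripts were tested on simulated data. Named were the members, TPD52, the 3 passing genes with the smallest p of each list and the 5 genes most like HSD3B2. Clone and locus identifiers were left out of the latter. Genes outside this rule (STAR, NR5A1, AMH, FDXR, squalene epoxidase, the heme oxygenases, HSD3BP2, CYP21A1P, TNXB and WBP1L) were named after their values were seen. The 17 alternatives were pseudocounts of 0.1 and 1, no filter or 5 FPKM, median-ratio, quantile and non-mitochondrial scaling, a loess correction for length and GC content (span 0.3, available for 12707 genes, 99.4%), limma-voom on recovered reads, no variance trend, a replicate block, and leaving out each library.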

Additional observations from a re-analysis of the deposited data

How the results depend on the processing

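HSD3B2 and CYP19A1 kept their direction and call in all 17 alternatives. CYP17A1 and H6PD kept their direction, with log2 differences from -0.48 to -0.24 and from -0.53 to -0.11. The number of members higher ran from 2 to 4. The number lower was 1 with a pseudocount of 1, 2 under a filter of 5 FPKM, 2 by limma-voom and 2 with the replicate block; leaving out 1 library gave 0 to 2. Over all genes, the number higher was 177 without a filter, 1083 with median-ratio scaling, 1152 with quantile normalization and 1288 after the correction for length and GC, and the number lower was 354 without a filter and 1038 with median-ratio scaling. Leaving out 1 library gave 48 to 1616 higher and 39 to 4209 lower, both highest without shTPD52 replicate 2 and lowest without shCtrl replicate 3. The cause of these shifts was not tested, beyond the fewer libraries or different genes that some alternatives hold.

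TPD52 lost its call without a filter (log2 difference -0.65, adjusted p by limma = 0.0670), under a filter of 5 FPKM (-0.65, adjusted p by limma = 0.0616) and after the correction for length and GC (-0.50, adjusted p by limma = 0.0788), and ran from -0.70 to -0.60 with 1 library left out. Of members that did not pass, POR turned to 0.091 with median-ratio scaling, 0.045 with non-mitochondrial scaling and 0.22 after the correction for length and GC. CYB5A turned to 0.10, 0.12, 0.059 and 0.19 with median-ratio, quantile and non-mitochondrial scaling and after that correction, and ran from -0.057 to 0.016 with 1 library left out. PGRMC1 turned to 0.048 with median-ratio and 0.0020 with non-mitochondrial scaling. The ratio of POR to the P450 enzymes turned from -0.14 to 0.073 on the log2 scale after the correction for length and GC.

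The labels do not say whether same-numbered libraries belong together. Their deviations from the group mean correlated at 0.045, 0.25 and 0.022 over genes for numbers 1, 2 and 3. The best match of shCtrl replicate 1 was shTPD52 replicate 3 (0.28). With 3 libraries per group, such correlations cannot tell whether the libraries were paired. With the replicate block 906 genes were higher and 2158 lower, and CYP17A1 (adjusted p by limma = 0.0455) and H6PD (adjusted p by limma = 0.0400) passed. Sign flips of the 3 pairs cannot give a p under 0.25 for the ratios. Depth limits HSD3B1 most, at 49 reads over the 3 shTPD52 libraries.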
